A study of Homo sapiens with 6 samples.

Results

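The SLC1 genes encode the sodium-coupled carriers of glutamate and of neutral amino acids, and 5 of them (SLC1A5, SLC1A4, SLC1A3, SLC1A2 and SLC1A1) are described here in T98G, a human glioblastoma cell line. The members were taken by gene symbol from a table of 35750 genes, and all 5 were found. The table holds counts and FPKM (fragments scaled for gene length and for library depth, so that levels can be compared between genes) for 3 libraries of T98G cells labelled shSLC1A5 and 3 labelled shControl. The labels give the shSLC1A5 cells as an SLC1A5 knockdown and the shControl cells as the control, all grown in the same serum-containing medium, with poly(A) RNA read as pairs of 150 bases. They do not give the hairpin sequence, the vector, the time after its delivery, or whether the cells were clones or a pool. Nor do they state if each library had a culture of its own; the p-values then describe how these libraries vary, perhaps only technically.

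Carriers of this family move their substrate together with sodium ions and work as trimers at the cell surface. SLC1A5 (also called ASCT2) and SLC1A4 (ASCT1) exchange neutral amino acids across the membrane, SLC1A5 with glutamine among its substrates and SLC1A4 mainly alanine, serine, cysteine and threonine. SLC1A3 (EAAT1, or GLAST), SLC1A2 (EAAT2, or GLT-1) and SLC1A1 (EAAT3) take up glutamate and aspartate, driven by the sodium and potassium gradients. In the brain SLC1A3 and SLC1A2 are known as the carriers with which astrocytes clear glutamate from synapses, and SLC1A1 as a carrier of neurons that also takes up cysteine.

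SLC1A5 and SLC1A4 are the closest pair among the 5 members. GENCODE 29 coding sequences gave 71.6% identity over 1527 aligned bases for SLC1A5 and SLC1A4, against 63.8% for SLC1A5 and SLC1A3, 62.8% for SLC1A5 and SLC1A1, and 62.2% for SLC1A5 and SLC1A2. The stretch of 90 bases where SLC1A5 and SLC1A4 are most alike is shown 5′ to 3′ on the coding strand, because it is where a read could most easily be given to the wrong member. It covers coding bases 762 to 851 of SLC1A5 and 738 to 827 of SLC1A4, 77 of the 90 bases are identical, and capitals mark the bases that differ.
SLC1A5 coding: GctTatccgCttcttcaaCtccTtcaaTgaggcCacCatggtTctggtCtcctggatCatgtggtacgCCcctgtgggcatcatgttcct
SLC1A4 coding: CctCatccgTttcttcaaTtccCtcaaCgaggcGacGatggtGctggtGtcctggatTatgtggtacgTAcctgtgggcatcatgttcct
The longest identical run between these genes, the last 20 bases of this stretch, is much shorter than a read of 150 bases. Of 3424 different words of 50 bases in the transcripts of SLC1A5, 0 occurred in a transcript of any other GENCODE 29 gene. The same count was 0 of 6487 for SLC1A3, 0 of 3998 for SLC1A1, 16 of 6981 for SLC1A4 and 58 of 23885 for SLC1A2.

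Promoter windows of 300 bases, 250 before and 50 after each RefSeq transcription start on GRCh38.p14, were searched for 6 motifs on both strands. SLC1A5 has 3 listed starts, SLC1A4 has 2, SLC1A3 has 3 and SLC1A1 has 1; SLC1A2 has no window here. Shown 5′ to 3′ on the strand of each gene are the window at the outermost start of SLC1A5 and the windows of members that hold the element TGATGNAA, the composite element that ATF4 and its partner CHOP bind in amino acid response genes. Capitals mark that element.
SLC1A5 start 1, chr19:46788545-46788844, minus strand: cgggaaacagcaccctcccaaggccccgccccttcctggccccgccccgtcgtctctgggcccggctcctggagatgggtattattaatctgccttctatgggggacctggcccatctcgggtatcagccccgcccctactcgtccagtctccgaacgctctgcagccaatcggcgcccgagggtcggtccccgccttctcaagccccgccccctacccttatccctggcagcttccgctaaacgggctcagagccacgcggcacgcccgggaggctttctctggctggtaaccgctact
SLC1A5 start 3, chr19:46784765-46785064, minus strand: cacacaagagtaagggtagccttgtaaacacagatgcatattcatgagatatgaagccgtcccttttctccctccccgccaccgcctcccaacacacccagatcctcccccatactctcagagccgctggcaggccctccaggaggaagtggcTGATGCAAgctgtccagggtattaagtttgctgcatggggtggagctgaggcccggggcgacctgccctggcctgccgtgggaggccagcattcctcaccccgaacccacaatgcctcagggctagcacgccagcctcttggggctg
SLC1A4 start 2, chr2:64989149-64989448, plus strand: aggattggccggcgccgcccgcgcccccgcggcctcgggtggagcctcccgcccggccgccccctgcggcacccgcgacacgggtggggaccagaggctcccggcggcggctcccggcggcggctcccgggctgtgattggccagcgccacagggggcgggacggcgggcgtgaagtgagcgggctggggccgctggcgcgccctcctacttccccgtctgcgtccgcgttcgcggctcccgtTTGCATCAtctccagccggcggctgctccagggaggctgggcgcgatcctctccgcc
SLC1A3 start 1, chr5:36596338-36596637, plus strand: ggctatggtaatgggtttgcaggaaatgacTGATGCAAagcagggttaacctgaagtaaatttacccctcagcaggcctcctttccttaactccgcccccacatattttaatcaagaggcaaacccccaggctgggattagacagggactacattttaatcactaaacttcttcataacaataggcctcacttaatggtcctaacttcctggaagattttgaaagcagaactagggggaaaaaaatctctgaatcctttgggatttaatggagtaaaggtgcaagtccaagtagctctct
The window at SLC1A5 start 1 holds 4 GC boxes (GGGCGG), 1 CCAAT box (CCAAT) and no match to the composite element. SLC1A5 start 3 lies inside the gene, and its window holds the composite element from base -97. In SLC1A4 the element TTGCATCA, its reverse strand form, begins at base -7 from start 2, which lies downstream of start 1, beside 4 GC boxes and 2 CCAAT boxes. SLC1A3 start 1 lies upstream of the gene's span in the deposited table and has the element from base -220, while the windows at SLC1A3 starts 2 and 3 and at SLC1A1 hold no match to it. Over 35116 RefSeq promoter windows of this length, 3.62% held the composite element, 45.0% a GC box and 34.6% a CCAAT box. The other motifs were the E-box CACGTG (7.26% of windows, with a match at SLC1A5 start 2), the E2F site TTTNNCGC (6.89%, at SLC1A4 start 1 and SLC1A3 start 2) and the antioxidant element TGACNNNGC (13.3%, at SLC1A5 start 2 and SLC1A3 start 2). The antioxidant and E2F matches at SLC1A3 start 2 overlap each other. A match describes letters in a window and is not evidence that a factor binds there.

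Total counts were 66998312 to 70802167 in the shSLC1A5 libraries and 59327548 to 63420773 in the shControl libraries, so every shSLC1A5 library was the deeper. The 11841 genes that averaged 1 FPKM or more were tested with edgeR's quasi-likelihood test on the counts and Benjamini-Hochberg adjustment over all of them, at an adjusted p under 0.05. By this rule 39.2% of tested genes were called, 20.2% higher and 19.0% lower in the shSLC1A5 libraries. The FPKM of the groups did not overlap for 49.6% of tested genes, and for 22.3% every shSLC1A5 value lay below every shControl value. Fold changes went with the GC content of the longest transcript (Spearman correlation 0.49 across 11800 genes, which are not independent replicates), so values with offsets for GC content and length are given where these end a call or move a value by over 1.5 times. Summed FPKM of 8 neutrophil markers was 66.6, 0.458 and 0.559 in the shSLC1A5 libraries and 0.114 to 0.305 in the shControl libraries, with MPO at 0 in all 6. Summed FPKM of 8 B cell markers was 5.98 to 12.4 in the shSLC1A5 libraries and 0.233 to 0.554 in the shControl libraries. IGHM, the heavy chain of B cell surface antibody, was listed at 0 in every shControl library. Of 5 red cell markers in the table, the sum was 5.27, 0.297 and 0.0783 FPKM in the shSLC1A5 libraries and 0 to 0.0667 in the shControl libraries. In shSLC1A5 replicate 1 most of that sum was ALAS2, at 4.71 FPKM, while the globin genes HBA1 and HBA2 were at 0 there. The part of these transcripts in the results below was not tested, but values without shSLC1A5 replicate 1, the library with the neutrophil markers, are given for the members. Of 5 T cell markers, IL7R made up most of a sum of 48.8 to 51.7 FPKM in the shSLC1A5 libraries and 60.1 to 62.9 in the shControl libraries, with CD3E at 0 in all 6. Of 7 glial markers in the table, GFAP, the astrocyte filament, was at 0.0193 ± 0.00795 FPKM in the shSLC1A5 libraries and 0.0204 ± 0.0117 FPKM in the shControl libraries (SD, n = 3 each), and only SOX9 and GJA1 reached 1 FPKM. Of 7 mesenchymal glioblastoma markers, 5 were tested, 4 were lower and 1 was higher, and the sum, most of it VIM and CD44, was 597.6 to 614.7 FPKM in the shSLC1A5 libraries and 668.4 to 680.1 FPKM in the shControl libraries. Of 6 neuron markers, which summed to 3.69 to 4.50 FPKM in the shSLC1A5 libraries and 3.90 to 4.22 FPKM in the shControl libraries, SNAP25 alone reached 1 FPKM.

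Of the 4 members that were tested, SLC1A5 and SLC1A4 were lower in the shSLC1A5 libraries, by 9.02% and 35.3%, and SLC1A3 and SLC1A1 did not pass the test. Both calls are of the neutral amino acid carriers and both are downward, where 19.0% of all tested genes were called lower. SLC1A2, under 0.1 FPKM in every library, was below the level for testing. SLC1A5, the targeted gene, held 91.7% to 92.9% of the summed FPKM of the 7 SLC1 genes in every library, so the family's summed level is mostly this gene's. That sum was 94.4, 94.8 and 95.4 FPKM in the shSLC1A5 libraries and 103, 103 and 106 FPKM in the shControl libraries, which do not overlap.

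**Figure D1:**
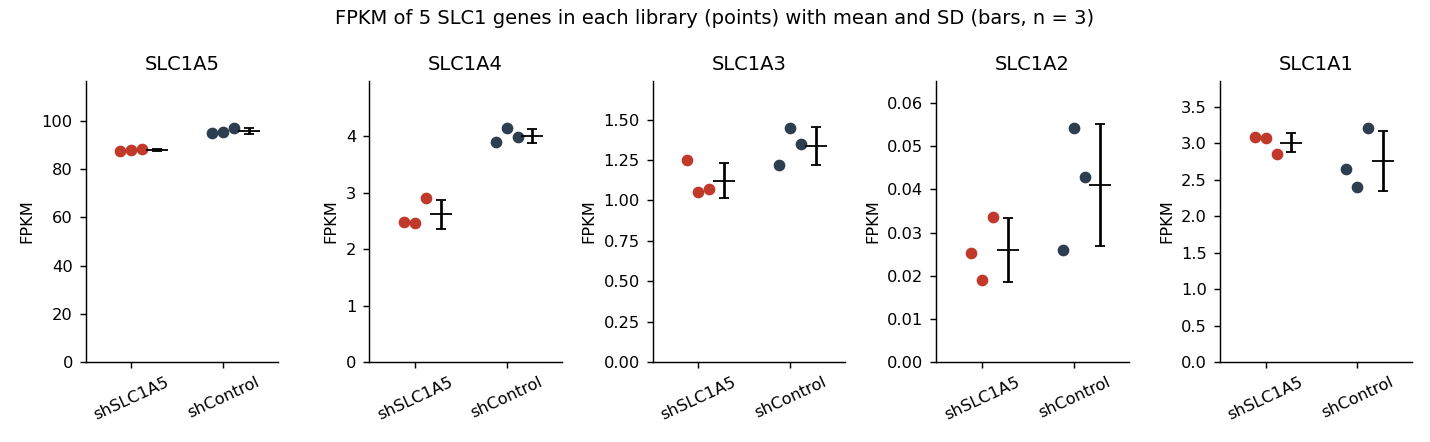
FPKM of the 5 SLC1 genes on linear axes that start at 0 and differ in range, with each library as a point and the mean and SD of 3 libraries as a bar, shSLC1A5 at the left and shControl at the right of each panel. The groups are apart for SLC1A5 and SLC1A4 and overlap for SLC1A3, SLC1A2 and SLC1A1.

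SLC1A5 (ENSG00000105281, GRCh38 chromosome 19, 46774883 to 46788594, minus strand) is the gene that the hairpin is named for. Its counts were 23334, 22251 and 22079 in the shSLC1A5 libraries and 22682, 22395 and 21515 in the shControl libraries, which overlap before depth is taken into account. As CPM, counts scaled to library size, it had 330, 328 and 330 in the shSLC1A5 libraries and 358, 356 and 363 in the shControl libraries, which do not overlap. Its FPKM was 87.5, 88.0 and 88.3 in the shSLC1A5 libraries, with a mean of 87.9 ± 0.407, and 95.01, 95.3 and 97.1 in the shControl libraries, with a mean of 95.8 ± 1.15 (SD, n = 3 each). Replicates lay close together and the whole difference between the groups was a small part of the level. By edgeR this was a log2 fold change of -0.14 (SE 0.0183, adjusted p = 1.93e-04), or 9.02% lower, and the 95% interval of the percent change ran from -11.5% to -6.44%. For FPKM alone, the exact two-sided permutation test gave p = 0.1, which is the least that 3 libraries on each side can give. SLC1A5 has a longest transcript of 61.3% GC, and with offsets for GC content and length its log2 fold change was -0.34 (edgeR adjusted p = 3.43e-07). In size, the change without offsets exceeded that of 51.7% of tested genes. Of all tested genes 19.0% were called lower, and for 22.3% every shSLC1A5 FPKM lay below every shControl FPKM. The decrease of SLC1A5 therefore does not by itself tell which libraries carry the hairpin. Because the targeted transcript differed this little, directions below are those of libraries labelled shSLC1A5 against libraries labelled shControl.

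SLC1A5 was among the most abundant carriers of the cell in both groups. It ranked 341 of 35750 genes by mean FPKM in the shSLC1A5 libraries and 311 in the shControl libraries, and was the fourth most abundant of 303 SLC genes in each of the 6 libraries. The SLC genes above it over all 6 libraries were SLC25A5 and SLC25A6, which exchange ADP and ATP across the mitochondrial membrane, with means of 221 and 163 FPKM, and SLC38A2, a sodium-coupled glutamine carrier, with 144 FPKM. A bulk level cannot tell fewer cells of a type from less RNA per cell.

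SLC1A5 shares genomic ground with an antisense gene, and the strand setting of the counts is not given in the sources used here. That gene, AC008622.2, had 11, 6 and 17 counts in the shSLC1A5 libraries and 0, 6 and 6 in the shControl libraries, few beside the counts of SLC1A5. Protein-coding genes on either side of SLC1A5, STRN4 and AP2S1, were higher. STRN4, a striatin scaffold, had 11.3 ± 0.115 FPKM in the shSLC1A5 libraries and 8.86 ± 0.219 FPKM in the shControl libraries (log2 fold change 0.33, edgeR adjusted p = 3.13e-05). AP2S1, a subunit of the clathrin adaptor AP-2, had 56.4 ± 0.391 FPKM in the shSLC1A5 libraries and 48.3 ± 0.223 FPKM in the shControl libraries (log2 fold change 0.21, edgeR adjusted p = 4.43e-04). With GC and length offsets neither neighbour passed the test, at log2 fold changes of 0.05 for STRN4 (edgeR adjusted p = 0.360) and 0.08 for AP2S1 (edgeR adjusted p = 0.108).

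SLC1A4 (ENSG00000115902, chromosome 2, 64988477 to 65023865, plus strand), the other carrier of neutral amino acids, had the largest fold change of the 4 tested members. Its counts were 1376, 1299 and 1520 in the shSLC1A5 libraries and 1939, 2033 and 1839 in the shControl libraries. Its FPKM was 2.47, 2.46 and 2.91 in the shSLC1A5 libraries, a mean of 2.62 ± 0.257, and 3.89, 4.15 and 3.98 in the shControl libraries, a mean of 4.01 ± 0.129 (SD, n = 3 each). All 3 shSLC1A5 values lay below all 3 shControl values, with shSLC1A5 replicate 3 the highest of its group, and the counts did not overlap even though the shSLC1A5 libraries were deeper. In edgeR's test its log2 fold change was -0.63 (SE 0.0724, adjusted p = 6.79e-05), or 35.3% lower with a 95% interval of -42.1% to -27.7%. The exact two-sided permutation test of FPKM gave p = 0.1, again the smallest possible. This fold change exceeded in size those of 96.8% of tested genes. It was -0.59 with GC and length offsets and -0.59 without shSLC1A5 replicate 1, against -0.14 for SLC1A5 without that library. Beside SLC1A4, the small nuclear RNA gene RNU6-548P that lies inside it had at most 2 counts in any library.

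SLC1A3 (ENSG00000079215, chromosome 5, 36606355 to 36688334, plus strand), the astrocyte glutamate carrier GLAST, was expressed near the level for testing. Its counts were 631, 502 and 505 in the shSLC1A5 libraries and 551, 645 and 565 in the shControl libraries. Its FPKM was 1.25, 1.05 and 1.07 in the shSLC1A5 libraries, a mean of 1.12 ± 0.111, and 1.22, 1.45 and 1.35 in the shControl libraries, a mean of 1.34 ± 0.116 (SD, n = 3 each). The groups overlap, since shSLC1A5 replicate 1 lay above shControl replicate 1 while replicates 2 and 3 of shSLC1A5 lay below every shControl library. The log2 fold change of -0.27 (SE 0.122, 95% interval -0.53 to 0.00) had an edgeR adjusted p = 0.107, and the exact two-sided permutation test gave p = 0.2. Without shSLC1A5 replicate 1 the edgeR log2 fold change was -0.36 with an adjusted p = 0.0530. The interval takes in percent changes from -31.0% to 0.125%, so the test does not show that the level was the same in both groups. Among genes that overlap SLC1A3, AC008957.3, on its own strand, had 46, 28 and 15 counts in the shSLC1A5 libraries and 21, 40 and 30 in the shControl libraries. The antisense genes AC008957.1 and AC008957.2 had at most 16 counts in any library.

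SLC1A1 (ENSG00000106688, chromosome 9, 4490468 to 4587469, plus strand), the carrier EAAT3, was the most abundant of the glutamate carriers in every library. Its counts were 983, 929 and 853 in the shSLC1A5 libraries and 755, 674 and 849 in the shControl libraries. Its FPKM was 3.09, 3.08 and 2.86 in the shSLC1A5 libraries, a mean of 3.01 ± 0.130, and 2.65, 2.40 and 3.21 in the shControl libraries, a mean of 2.76 ± 0.415 (SD, n = 3 each). The groups overlap, because shControl replicate 3 was the highest of all 6 libraries. The log2 fold change of 0.12 (SE 0.113, 95% interval -0.13 to 0.36) had an edgeR adjusted p = 0.455, and the exact two-sided permutation test gave p = 0.4. It was 0.18 with GC and length offsets (edgeR adjusted p = 0.261) and 0.09 without shSLC1A5 replicate 1 (edgeR adjusted p = 0.638). Between these bounds the data allow a percent change from -8.92% to 28.8%. SPATA6L, which overlaps SLC1A1 on the opposite strand, had 5, 13 and 0 counts in the shSLC1A5 libraries and 9, 10 and 19 in the shControl libraries.

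SLC1A2 (ENSG00000110436, chromosome 11, 35251205 to 35420063, minus strand), the main glutamate carrier of mature astrocytes, was barely represented. Its counts were 48, 34 and 59 in the shSLC1A5 libraries, with exact 95% Poisson intervals of 35.4 to 63.6, 23.5 to 47.5 and 44.9 to 76.1. In the shControl libraries it had 43, 88 and 66 counts, with intervals of 31.1 to 57.9, 70.6 to 108 and 51.0 to 84.0. These intervals cover counting error alone, and only some of them overlap between the groups. That of shControl replicate 2 lies above those of shSLC1A5 replicates 1 and 2. That of shControl replicate 3 lies above that of shSLC1A5 replicate 2. Its FPKM was 0.0252, 0.0189 and 0.0336 in the shSLC1A5 libraries and 0.0260, 0.0543 and 0.0428 in the shControl libraries, with means of 0.0259 ± 0.00737 in shSLC1A5 and 0.0410 ± 0.0142 in shControl (SD, n = 3 each). The exact two-sided permutation test gave p = 0.2, and no difference was detectable beyond the spread between libraries. The log2 ratio of mean CPM without shSLC1A5 replicate 1 was -0.63, with no test. The ratio of counts to FPKM corresponds to a gene model of about 26128 bases for SLC1A2, against 12041 bases for its longest GENCODE 29 transcript, so its FPKM depends on which length is used. The antisense genes AL133330.2 and AC090625.2, which overlap SLC1A2, had 0 counts in every library apart from 6 counts of AC090625.2 in shSLC1A5 replicate 1.

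The remaining genes of the family, SLC1A6 and SLC1A7, carry glutamate in cerebellar neurons and in the retina. SLC1A6 had 0, 4 and 0 counts in the shSLC1A5 libraries and 0 in each shControl library, where the exact 95% Poisson interval of a count of 0 reaches 3.69. SLC1A7 had 52, 60 and 112 counts in the shSLC1A5 libraries and 32, 46 and 56 in the shControl libraries. At 0.178 ± 0.0829 FPKM in the shSLC1A5 libraries and 0.116 ± 0.0367 FPKM in the shControl libraries (SD, n = 3 each), SLC1A7 overlapped between groups (exact two-sided permutation p = 0.4) and was below the level for testing.

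By level per length, the order in the shSLC1A5 libraries was SLC1A5, SLC1A1, SLC1A4, SLC1A3, SLC1A7, SLC1A2 and SLC1A6. In the shControl libraries SLC1A4 stood above SLC1A1 and the rest of the order was the same. SLC1A1 and SLC1A4 overlapped in the shSLC1A5 libraries, from 2.86 to 3.09 FPKM for SLC1A1 and 2.46 to 2.91 FPKM for SLC1A4, so their order there is not beyond the spread. In the shControl libraries they did not overlap, at 2.40 to 3.21 FPKM for SLC1A1 and 3.89 to 4.15 FPKM for SLC1A4. The other neighbours in the order did not overlap within either group. Summed over the carriers of glutamate (SLC1A1, SLC1A2, SLC1A3, SLC1A6 and SLC1A7), FPKM was 4.48, 4.29 and 4.23 in the shSLC1A5 libraries and 3.97, 4.02 and 4.75 in the shControl libraries, which overlap. Summed over the carriers of neutral amino acids, SLC1A5 and SLC1A4, it was 89.95, 90.5 and 91.2 in the shSLC1A5 libraries and 98.9, 99.4 and 101 in the shControl libraries, which do not.

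**Figure D2:**
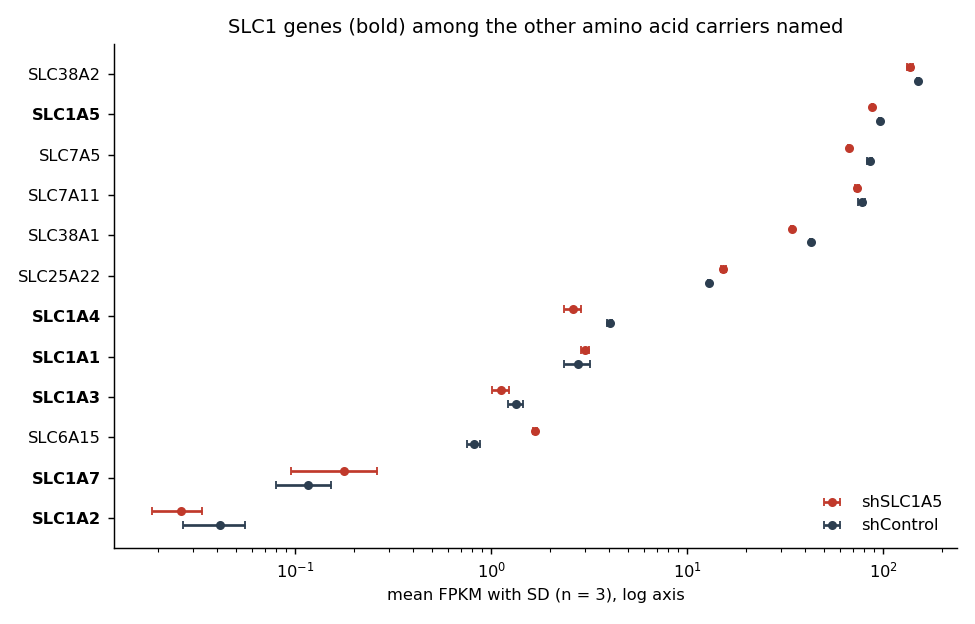
Mean FPKM with SD (n = 3) of SLC1 genes, in bold, and other carriers of amino acids named in the text on a log axis. For each gene shSLC1A5 is above shControl, and SLC1A6 and SLC3A2 are left out. SLC1A5 stands second to SLC38A2, SLC1A4, SLC1A1 and SLC1A3 lie between 1 and 5 FPKM, and SLC1A2 is the lowest drawn.

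Ratios between members within a library do not depend on how libraries are scaled, and 6 were compared. SLC1A5 had 35.4, 35.7 and 30.3 times the FPKM of SLC1A4 in the shSLC1A5 libraries and 24.4, 23.0 and 24.4 times in the shControl libraries. On the log2 scale SLC1A4 over SLC1A5 was -5.07 ± 0.133 in the shSLC1A5 libraries and -4.58 ± 0.0503 in the shControl libraries (SD, n = 3 each), a difference of -0.50 with no overlap. The exact two-sided permutation p was 0.1, the smallest possible, and 0.15 after Benjamini-Hochberg adjustment over the 6 ratios, so it does not pass the threshold in this design. All 3 shSLC1A5 libraries held more SLC1A5 RNA per SLC1A4 RNA than any shControl library. SLC1A3 over SLC1A5 differed by -0.13 on the log2 scale (exact permutation p = 0.3) and SLC1A1 over SLC1A5 by 0.26 (exact permutation p = 0.2). In both the groups overlap. The ratios were not run with GC and length offsets. In edgeR the offsets moved the log2 fold change of SLC1A4 from -0.63 to -0.59 and that of SLC1A5 from -0.14 to -0.34, values closer together. SLC1A3 went from -0.27 to -0.20, then a smaller decrease than that of SLC1A5, and SLC1A1 from 0.12 to 0.18.

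SLC1A4 was also set against the glutamate carriers. The ratio of SLC1A1 to SLC1A4 FPKM was 1.25, 1.25 and 0.981 in the shSLC1A5 libraries and 0.681, 0.579 and 0.807 in the shControl libraries, without overlap. As log2 of SLC1A4 over SLC1A1 the difference was -0.76 (exact permutation p = 0.1, adjusted 0.15 over the 6 ratios). SLC1A4 over SLC1A3 differed by -0.37 and SLC1A3 over SLC1A1 by -0.39, each without overlap and with the same exact permutation p. None of the 6 ratios passed the threshold after adjustment, and a ratio does not tell which of its members shifted.

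**Figure D3:**
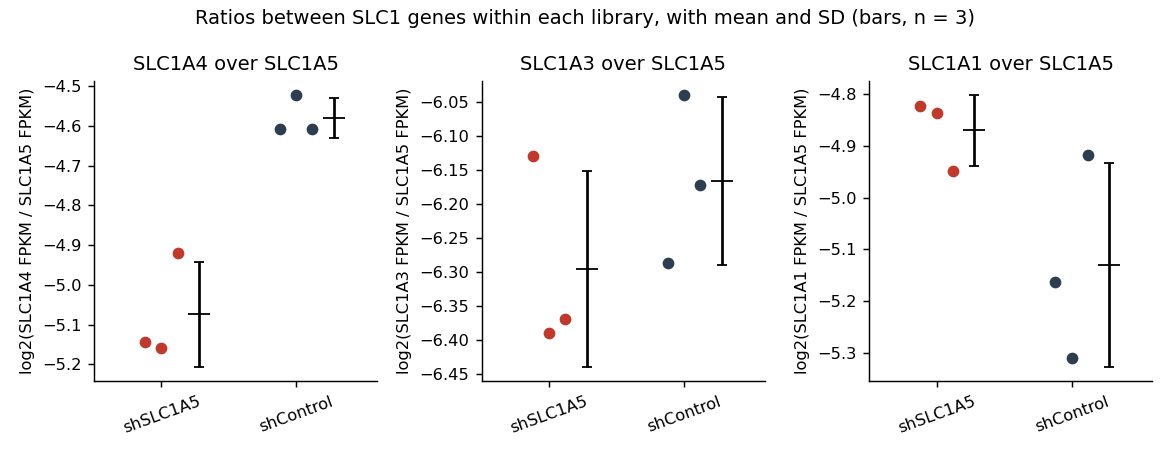
Log2 ratio of the FPKM of SLC1A4, SLC1A3 and SLC1A1 to that of SLC1A5 within each library (points) with the mean and SD of 3 libraries (bars), shSLC1A5 at the left and shControl at the right; the axes do not start at 0. SLC1A4 over SLC1A5 is lower in every shSLC1A5 library, and the other ratios overlap.

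**Figure D4:**
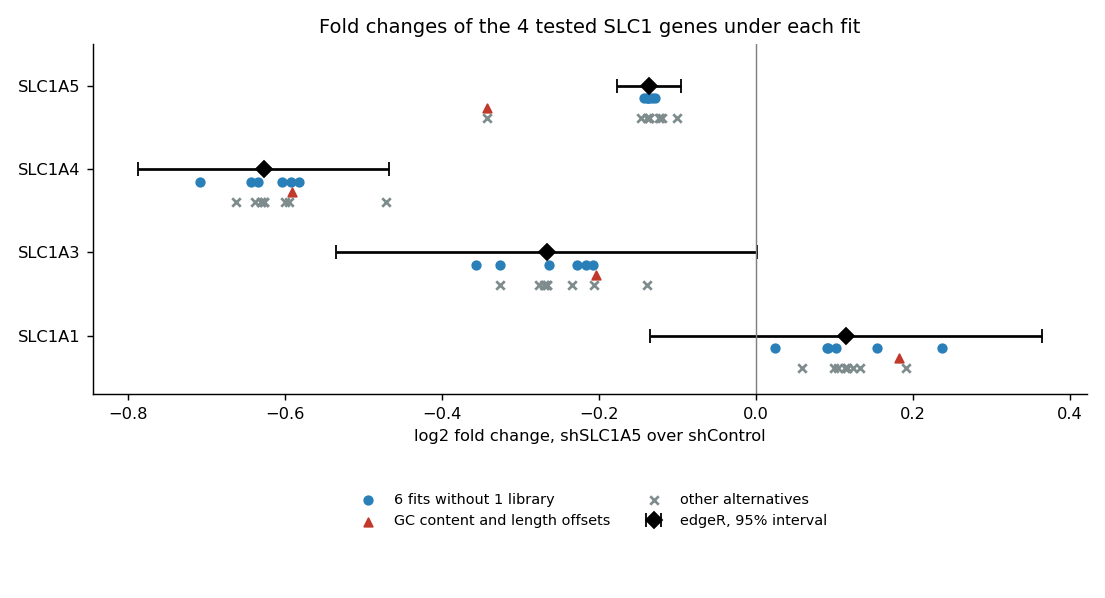
Log2 fold change, shSLC1A5 over shControl, of the 4 tested members, with the edgeR value and its 95% interval (diamond), fits without 1 library (circles), GC and length offsets (triangle) and other alternatives (crosses). SLC1A5 and SLC1A4 stay below 0 in every fit, and GC and length offsets move SLC1A5 from -0.14 to -0.34.

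The genes whose log2(FPKM + 1) was most like that of a member over the 6 libraries are given as a description, since the libraries form 2 groups and any gene that differs between them correlates. For SLC1A5 they were DNAJB1, a heat shock co-chaperone (Pearson r = 0.9998), the chemokine CCL5 (0.9996) and the chloride and proton exchanger CLCN3 (0.9988), and 1256 of 11210 compared genes had r over 0.9. For SLC1A4 they included CLIC1 (0.998), a chloride intracellular channel protein, and GOLPH3 (0.997), a Golgi phosphoprotein, with 1142 genes over 0.9. For SLC1A3, whose groups overlap, they were TANGO6 (0.988), the spliceosome helicase AQR (0.987) and TAF1A (0.981), a factor of RNA polymerase I, with 129 genes over 0.9. DNAJB1 had 24.2, 24.7 and 24.8 FPKM in the shSLC1A5 libraries and 31.4, 32.0 and 33.9 FPKM in the shControl libraries, the same order of libraries as SLC1A5.

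Among other carriers of neutral amino acids at the cell surface, 4 of 10 tested were lower. Of 20 listed, 18 were in the table and 10 were tested, of which 1 was higher and 4 lower, where 20.2% and 19.0% of all tested genes were; the median log2 fold change was -0.03, against -0.01 over all tested genes. SLC7A5, the exchanger that trades glutamine for leucine and other large neutral amino acids, had 66.6 ± 0.593 FPKM in the shSLC1A5 libraries and 85.1 ± 2.28 FPKM in the shControl libraries (log2 fold change -0.37, edgeR adjusted p = 3.93e-07), and -0.60 with GC and length offsets. SLC38A1, a sodium-coupled glutamine carrier, had 34.4 ± 0.411 FPKM in the shSLC1A5 libraries and 42.8 ± 0.527 FPKM in the shControl libraries (-0.33, edgeR adjusted p = 5.58e-07). SLC38A2, its relative induced by amino acid shortage, had 137 ± 4.31 FPKM in the shSLC1A5 libraries and 150.3 ± 2.06 FPKM in the shControl libraries (-0.14, edgeR adjusted p = 2.39e-04), and -0.07 with the offsets. The fourth lower gene, SLC3A2, the heavy chain that SLC7A5 pairs with, had 74.6 ± 1.93 FPKM in the shSLC1A5 libraries and 77.1 ± 1.40 FPKM in the shControl libraries, groups that overlap, and was named after its values were seen (-0.06, edgeR adjusted p = 0.0452). It was -0.16 with the offsets and was lost without single libraries (edgeR adjusted p up to 0.183). Over fits without single libraries 1 to 2 genes of the list were higher and 3 to 4 lower, where 32.7% to 34.5% of all tested genes were called in either direction. With the offsets 2 were higher and 4 lower, where 1381 and 1632 of all 11800 tested genes were. SLC6A15, a carrier of branched-chain amino acids and proline, was the 1 that was higher in the fit of all 6 libraries. It had 1.67 ± 0.0400 FPKM in the shSLC1A5 libraries and 0.816 ± 0.0629 FPKM in the shControl libraries (1.02, edgeR adjusted p = 1.46e-05; SD, n = 3 for each of these genes).

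Of 8 listed other carriers of glutamate, aspartate and cystine, 6 were in the table, 4 were tested, 1 was higher and 1 lower, counts near the 20.2% and 19.0% of all tested genes, at a median log2 fold change of 0.04. SLC25A22, a mitochondrial glutamate carrier, had 15.3 ± 0.443 FPKM in the shSLC1A5 libraries and 12.9 ± 0.159 FPKM in the shControl libraries (log2 fold change 0.23, edgeR adjusted p = 7.15e-04). SLC7A11, which exports glutamate in exchange for cystine, had 73.5 ± 1.68 FPKM in the shSLC1A5 libraries and 77.5 ± 2.90 FPKM in the shControl libraries, groups that overlap (-0.09, edgeR adjusted p = 0.0179). With GC and length offsets neither passed the test, at -0.04 for SLC25A22 (edgeR adjusted p = 0.483) and -0.03 for SLC7A11 (edgeR adjusted p = 0.368). SLC7A11 was also lost without single libraries, at an edgeR adjusted p up to 0.0583.

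Enzymes that make or use the carried amino acids were mostly lower. Of 20 listed, 19 were in the table and 15 were tested, with 3 higher, 10 lower and a median log2 fold change of -0.23, where 20.2% and 19.0% of all tested genes were higher and lower and the median was -0.01. The lists were chosen with earlier results of these data known, so these counts are a description. Without shSLC1A5 replicate 1 the counts were 2 higher and 10 lower, where 2067 and 1895 of all 11826 tested genes were. ASNS, which makes asparagine with nitrogen from glutamine, had 13.2 ± 0.424 FPKM in the shSLC1A5 libraries and 25.7 ± 0.758 FPKM in the shControl libraries (log2 fold change -0.98, edgeR adjusted p = 1.12e-08). PSAT1 and PHGDH, enzymes of serine synthesis that use or feed glutamate-dependent transamination, were lower as well, PSAT1 at 61.5 ± 2.02 FPKM in the shSLC1A5 libraries and 101.6 ± 1.37 FPKM in the shControl libraries (-0.74, edgeR adjusted p = 7.68e-09). PHGDH had 18.5 ± 0.209 FPKM in the shSLC1A5 libraries and 25.9 ± 1.04 FPKM in the shControl libraries (-0.50, edgeR adjusted p = 3.55e-07). In the other direction, glutamine synthetase, GLUL, had a log2 fold change of 0.22 (edgeR adjusted p = 0.00318); it was chosen after its value was seen.

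Of 12 genes for partners of SLC1 proteins, 11 were tested, 1 was higher and 4 were lower (all tested genes: 20.2% and 19.0%), at a median log2 fold change of -0.04. AJUBA, a LIM protein known to bind SLC1A2, had 6.30 ± 0.113 FPKM in the shSLC1A5 libraries and 9.002 ± 0.210 FPKM in the shControl libraries (log2 fold change -0.53, edgeR adjusted p = 2.22e-06). The ubiquitin ligases NEDD4 and NEDD4L, of a family that sends membrane carriers for degradation, were lower, NEDD4 at 20.8 ± 0.669 FPKM in the shSLC1A5 libraries and 24.8 ± 0.474 FPKM in the shControl libraries (-0.26, edgeR adjusted p = 1.80e-05). NEDD4L had 1.53 ± 0.0209 FPKM in the shSLC1A5 libraries and 1.90 ± 0.00626 FPKM in the shControl libraries (-0.33, edgeR adjusted p = 4.56e-05). EGFR, a receptor reported to form a complex with SLC1A5, had 37.2 ± 0.810 FPKM in the shSLC1A5 libraries and 41.2 ± 1.27 FPKM in the shControl libraries (-0.16, edgeR adjusted p = 3.02e-04). SEPTIN2, the most abundant of the list, had 50.8 ± 0.777 FPKM in the shSLC1A5 libraries and 51.1 ± 1.53 FPKM in the shControl libraries and did not pass the test (-0.02, edgeR adjusted p = 0.518). Its log2 fold change was 0.04 with GC and length offsets, again without passing (edgeR adjusted p = 0.207). With GC and length offsets 6 genes of this list were called, all lower, and some of them were not called without the offsets. Of all 11800 genes tested with the offsets, 25.5% were called, 1381 higher and 1632 lower.

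Of 12 transcription factors known to act on SLC1 genes, 10 were tested, 4 were higher and 3 lower (all tested genes: 20.2% and 19.0%), at a median log2 fold change of -0.02. With GC and length offsets 1 was higher and 2 lower, where 1381 and 1632 of all 11800 tested genes were. Without single libraries 1 to 4 were higher and 2 to 3 lower, where 32.7% to 34.5% of all tested genes were called in either direction. ATF4, the activator of amino acid response genes whose composite element appears in the windows above, had 101.7 ± 2.04 FPKM in the shSLC1A5 libraries and 114.0 ± 1.31 FPKM in the shControl libraries (log2 fold change -0.18, edgeR adjusted p = 7.06e-05). DDIT3, which encodes CHOP, had 11.5 ± 0.259 FPKM in the shSLC1A5 libraries and 14.7 ± 0.425 FPKM in the shControl libraries (-0.37, edgeR adjusted p = 8.59e-04). Both were lower, and whether either acts on an SLC1 gene in these libraries was not tested. E2F1, a cell cycle regulator, had 41.6 ± 1.31 FPKM in the shSLC1A5 libraries and 34.2 ± 0.523 FPKM in the shControl libraries (0.27, edgeR adjusted p = 8.60e-05). RELA, a subunit of NF-kappaB, had 13.8 ± 0.130 FPKM in the shSLC1A5 libraries and 12.5 ± 0.352 FPKM in the shControl libraries (0.13, edgeR adjusted p = 0.0134). With the offsets neither of these passed, at 0.04 for E2F1 (edgeR adjusted p = 0.462) and 0.02 for RELA (edgeR adjusted p = 0.777), and RELA was also lost without single libraries, at an edgeR adjusted p up to 0.0604.

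Of 24 glutamate receptor genes, 22 were in the table and 0 were tested, so none of these 22 reached a mean of 1 FPKM. The highest of them, the kainate receptor subunit GRIK4, had 0.424 ± 0.0406 FPKM in the shSLC1A5 libraries and 0.440 ± 0.107 FPKM in the shControl libraries (SD, n = 3 each), groups that overlap.

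**Figure D5:**
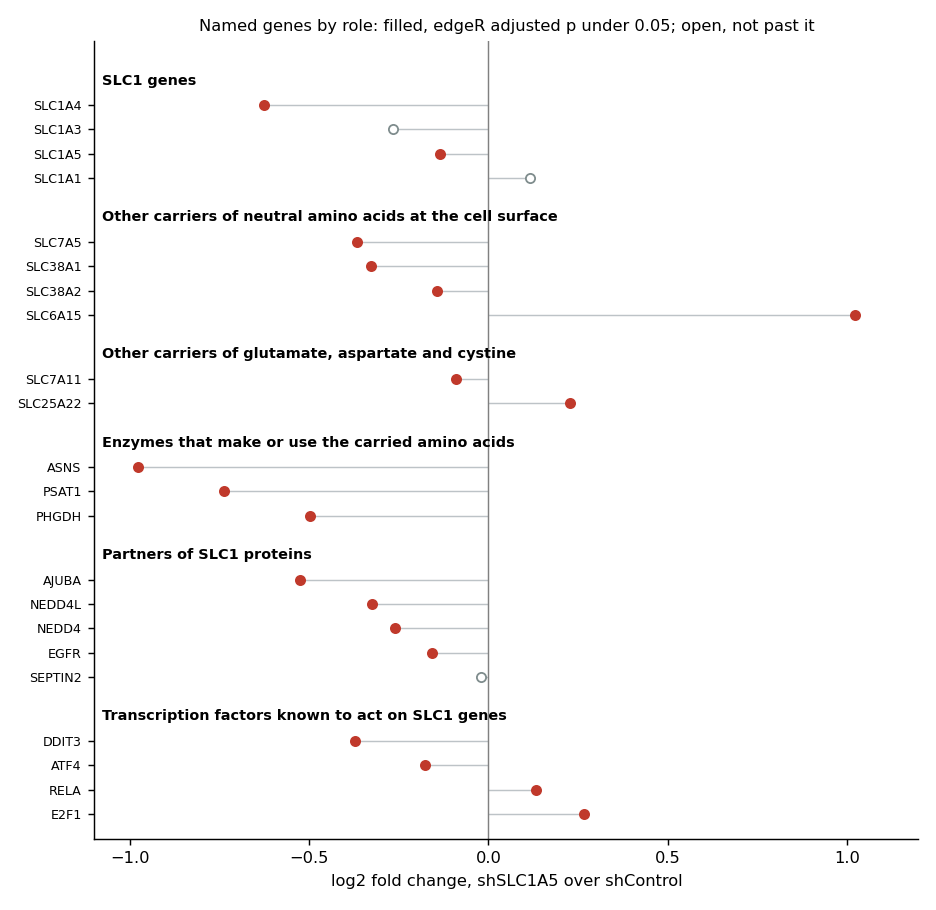
EdgeR log2 fold change, shSLC1A5 over shControl, of the tested SLC1 genes and of genes named in the text from 5 lists by role. Points are filled where the adjusted p was under 0.05 and open where it was not. GLUL (0.22) and SLC3A2 (-0.06), named after their values were seen, are not drawn. SLC1A5 and SLC1A4 lie below 0 and are filled. ASNS is the furthest below 0 and SLC6A15 the furthest above 0.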

How the data were processed

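Per the file headers, the authors deposited 1 table with counts per gene and FPKM for each of 6 T98G libraries; the counts were taken as raw. The submitters' processing notes name fastp, HISAT2 and StringTie without roles; versions, genome build, annotation and strand setting: not given in the sources used here. Of 34674 IDs shared with GENCODE 29, 99.97% overlap the same gene on GRCh38, with other ends in some, so coordinates are given as the table has them. Columns were matched to samples by NC or sh and the number in each title.

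The members and the gene lists were chosen with earlier results of these data known. edgeR 4.0.16 in R 4.3.3 was run on the deposited counts with TMM and a model of group only (quasi-likelihood F test), and p-values were adjusted by Benjamini-Hochberg over the 11841 genes that averaged 1 FPKM or more. The SE is the log2 fold change divided by the square root of F. The common biological coefficient of variation was 0.0982. Single values were compared by exact two-sided permutation tests over 20 splits. Sequences are from GENCODE 29 and RefSeq (GRCh38.p14). Genes named are all SLC1 genes, from each list up to 4 called genes of lowest adjusted p and the gene of highest FPKM, the 3 genes most like SLC1A5, SLC1A4 and SLC1A3, and genes beside or overlapping a member; some that this rule takes, and 1 list, are not reported here. Alternatives were DESeq2 1.42.0, limma 3.58.1 on log2(FPKM + 1) and log2(FPKM + 0.1), other normalizations and filters, offsets for GC content and length (loess, span 0.3), a block for replicate number and fits that left out each library. edgeR's filterByExpr and offsets combined with the block were added after seeing the data. Same-group libraries compared in pairs had a chi-square per gene of 9.82 to 16.7, where counting noise gives about 1, so none was 1 library deposited under 2 names. The fitting step was tested on simulated data with known changes.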

Additional observations from a re-analysis of the deposited data

How the results depend on the processing

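SLC1A5 and SLC1A4 kept their direction and their edgeR call, and SLC1A3 and SLC1A1 their direction and lack of one, under every alternative run on them. SLC1A5 ran from -0.14 to -0.13 on the log2 scale without single libraries and from -0.34 to -0.10 under the other alternatives, SLC1A4 from -0.71 to -0.58 and from -0.66 to -0.47. SLC1A3 ran from -0.36 to -0.21 without single libraries, with an adjusted p of 0.0530 to 0.305 by edgeR, and SLC1A1 from 0.02 to 0.24. SLC1A2, not tested at 1 FPKM, had a log2 fold change of -0.64 with every gene kept (edgeR adjusted p = 0.394) and of -0.65 under filterByExpr (edgeR adjusted p = 0.234). Without single libraries the log2 ratio of mean SLC1A2 CPM ran from -0.88 to -0.39. The log2 ratio of SLC1A4 to SLC1A5 differed by -0.57 to -0.45 without single libraries. That of SLC1A3 to SLC1A5 differed by -0.21 to -0.07 and that of SLC1A1 to SLC1A5 by 0.17 to 0.37. These ratios were not run with GC and length offsets. Under the offsets the log2 fold change of SLC1A3 was -0.20 and that of SLC1A5 -0.34, the reverse of their order without offsets. Over all genes 3867 to 4082 were called without single libraries, against 4641. With GC content and length offsets 3013 were called, and 2848 with those offsets and the replicate block together; the cause was not tested. Same-numbered libraries were not shown to be paired, with correlations of -0.151, 0.0356 and -0.0342 between their deviations. With the replicate block 4470 genes were called, SLC1A5 had -0.14, SLC1A4 -0.63 and no call of a member changed. The stricter minimum of 5 FPKM gave no value for SLC1A4, SLC1A3 and SLC1A1. With 3 libraries a group, no permutation test can go below p = 0.1.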
